A study of Mus musculus with 2 samples.

Results

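The 8 genes described here code for the alpha subunits of voltage-gated sodium channels that dorsal root ganglion cells are known to use: Scn1a (NaV1.1), Scn2a (NaV1.2), Scn3a (NaV1.3), Scn8a (NaV1.6), Scn9a (NaV1.7), Scn10a (NaV1.8), Scn11a (NaV1.9) and Scn7a, whose product NaX is the atypical member of the family. They were taken by symbol, 8 of the 31253 genes listed in the count matrices, with earlier results of these data known. Each was followed across neuron and glial types of L4-5 dorsal root ganglia from wild-type mice aged 8 weeks that had received acetone, ether and water (AEW), a treatment that dries the skin and makes mice scratch. The group held 2 libraries, replicates 1 and 2, made by droplet-based single-cell sequencing of the 3' ends of transcripts, and no untreated group was analysed here, so every comparison is between cell types within AEW ganglia. The labels do not say whether the replicates came from separate animals. With library as a term in the fits, p-values measure how differences between types varied between these 2 libraries, which may be technical.

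An alpha subunit forms the sodium-conducting pore on its own and sets when the channel opens and closes. NaV1.8 and NaV1.9 resist tetrodotoxin and are known as channels of nociceptors, whereas NaV1.1, NaV1.2, NaV1.3, NaV1.6 and NaV1.7 are blocked by it. NaV1.6 and NaV1.1 carry current at nodes of Ranvier and in fast-firing neurons, NaV1.7 amplifies small depolarisations at nerve endings, and NaX is known as a sodium-level sensor of glia and some neurons rather than as a channel of the action potential.

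Cells were assigned to types by marker genes, none of them a member of the family. Gated neurons numbered 610 and 895 of the 8329 and 11290 kept cells, although the labels give the cell type of both samples as neuron. Of these, 528 and 752 took the name of 1 neuron type. The types were Mrgprd nociceptors (NP1, 138 and 157 cells in replicates 1 and 2), Mrgpra3 itch neurons (NP2, 31 and 24), Nppb and Sst itch neurons (NP3, 32 and 33), peptidergic C neurons (PEP-C, 139 and 238), peptidergic A-delta neurons (PEP-A, 44 and 48), Th touch neurons (TH, 55 and 139), Trpm8 cold neurons (TRPM8, 23 and 11) and large neurofilament-rich A-fibre neurons (NF, 66 and 102). Non-neuronal types included satellite glia (2210 and 2396 cells), myelinating Schwann cells (1046 and 593) and non-myelinating Schwann cells (344 and 171). Median depth per neuron was 104544.5 UMIs (unique molecular identifiers, 1 per captured transcript) in replicate 1 and 57690 in replicate 2, against 3274.5 and 3018 in non-myelinating Schwann cells. Some markers did not follow the names. The summed PEP-A list, which shares Calca with the PEP-C list, was higher in PEP-C cells (138 and 179 UMIs per 10000) than in PEP-A cells (98.6 and 153), and NF of replicate 2 held 30.0 of PEP-A markers beside 29.3 of its own, the lists sharing Nefh. The 11 cells called T or NK in replicate 1 held neuron markers at 71.9 against 13.9 of their own, and no result rests on them. TRPM8 neurons held PEP-C markers at 32.7 and 31.3 and NF markers at 10.4 and 6.88, against 5.30 and 3.09 of their own. NP2 held PEP-C markers at 93.1 and 100.2 against 4.03 and 7.16 of its own. In NP1 too, PEP-C markers exceeded its own. Of PEP-A cells, 29.5% and 25% held Smr2, 18.2% and 27.1% Oprk1, 63.6% and 52.1% Bmpr1b, and 72.7% and 68.8% Kit. Nefh and Calca, which other lists share, were in 100% of PEP-A cells. Non-myelinating Schwann cells held satellite glia markers at 188 and 186 against 34.2 and 29.0 of their own. Ngfr was found in 31.4% and 17.5% of them. Rxfp1 was at 0 UMIs in TRPM8 neurons, and Ajap1 was at 0 in replicate 1 and in 0.585% of cells in replicate 2 of the non-myelinating Schwann type. The bearing of these mismatches on member levels was not tested.

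On build GRCm38, 5 of the genes lie within 1328 kb of chromosome 2 (65457118 to 66784914), in the order Scn3a, Scn2a, Scn1a, Scn9a and Scn7a. Scn10a and Scn11a are neighbours within 217 kb of chromosome 9 (119608456 to 119825456), and Scn8a stands alone on chromosome 15 (100869858 to 101045938). Antisense genes overlap Scn3a (Gm13595) and Scn9a (Gm13629) on the opposite strand and are themselves listed in the matrices. Whether the counting used strand and introns is not given in the sources used here, so UMIs of these overlapping stretches are uncertain for Scn3a and Scn9a.

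The sequences before the transcription start are shown for 5 members, from RefSeq on GRCm38.p6: the neighbours Scn10a and Scn11a, whose levels went together across neuron types, Scn9a, which was high in all of them, Scn7a, the one high in glia, and the first of 2 starts of Scn8a. Each run is the 250 bases before the RefSeq start, 5′ to 3′ on the gene's own strand. By the GENCODE positions the Scn10a and Scn8a windows lie inside the gene, since those genes start further upstream, at 119719322 and 100869858. They are chr9:119719033-119719282 (minus strand), chr9:119825457-119825706 (minus), chr2:66634963-66635212 (minus), chr2:66784911-66785160 (minus) and chr15:100870395-100870644 (plus). Capitals mark matches, on either strand, to motifs of 9 kinds: the RUNX motif spelled TGTGGT, the SOX motif spelled AACAAT and also counted when spelled AACAAA, the TATA box spelled TATAAA, the GC box spelled GGGCGG, a homeodomain motif spelled TAATTA, the E-box spelled CAGCTG, the CAAT box spelled CCAAT, the KLF motif spelled GGGTGGG and the AP-1 motif spelled TGAGTCA.
Scn10a: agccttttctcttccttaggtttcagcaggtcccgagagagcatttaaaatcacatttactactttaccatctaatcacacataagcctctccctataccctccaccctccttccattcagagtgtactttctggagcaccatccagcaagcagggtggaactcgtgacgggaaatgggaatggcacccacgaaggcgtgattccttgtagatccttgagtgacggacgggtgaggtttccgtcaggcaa
Scn11a: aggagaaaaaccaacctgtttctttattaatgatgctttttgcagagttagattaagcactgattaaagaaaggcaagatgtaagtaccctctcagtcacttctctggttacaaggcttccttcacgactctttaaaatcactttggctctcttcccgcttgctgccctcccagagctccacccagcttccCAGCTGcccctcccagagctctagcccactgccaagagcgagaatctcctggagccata
Scn9a: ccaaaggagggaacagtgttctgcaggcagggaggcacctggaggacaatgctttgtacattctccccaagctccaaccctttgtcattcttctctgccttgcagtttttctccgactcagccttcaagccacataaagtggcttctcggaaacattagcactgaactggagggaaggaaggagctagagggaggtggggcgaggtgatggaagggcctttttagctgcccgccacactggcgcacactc
Scn7a: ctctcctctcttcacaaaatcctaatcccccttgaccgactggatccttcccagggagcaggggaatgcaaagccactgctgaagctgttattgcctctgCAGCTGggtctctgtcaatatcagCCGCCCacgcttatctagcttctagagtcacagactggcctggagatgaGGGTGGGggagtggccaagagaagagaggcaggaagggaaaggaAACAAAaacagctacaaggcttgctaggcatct
Scn8a: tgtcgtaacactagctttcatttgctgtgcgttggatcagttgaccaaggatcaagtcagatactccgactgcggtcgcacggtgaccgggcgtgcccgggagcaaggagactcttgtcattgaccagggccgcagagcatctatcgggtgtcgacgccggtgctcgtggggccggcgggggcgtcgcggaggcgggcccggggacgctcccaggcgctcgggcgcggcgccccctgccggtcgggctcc
None of the 9 motifs was in the Scn10a, Scn9a or Scn8a window. The Scn7a window held SOX letters 33 bases before the start, KLF letters at 77, a GC box at 126 and an E-box at 150, and the Scn11a window held an E-box at 59. Of 32851 promoter windows of the same length, 24.9% held the SOX letters, 15.8% the KLF letters, 32.7% the GC box and 13.0% the E-box letters. The Scn8a window stood out in base composition, with 30 CG pairs and 68% G or C, against medians of 6 and 52.4% over all windows. Scn10a had 8 CG pairs, Scn9a 5, and Scn11a and Scn7a 3 each.

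Scn10a and Scn11a, the tetrodotoxin-resistant pair, led the sodium channel RNA of the 3 non-peptidergic types and were nearly missing from TRPM8 neurons. Levels are given as UMIs of a gene per 10000 UMIs of all genes. A UMI is counted once per transcript at its 3' end, so levels were not scaled by length. Differences between genes in how well transcripts are captured were not measured, so shares and ratios between genes are of UMIs only. Scn10a stood at 4.72 and 4.11 per 10000 in replicates 1 and 2 of NP1, 4.52 and 3.62 in NP2, 4.14 and 3.41 in NP3, and 4.01 and 3.62 in PEP-A. It was lower in PEP-C (2.87 and 2.48) and TH (1.74 and 1.61), and lowest in NF (0.389 and 1.20) and TRPM8 (0.105 and 0.0185). The ranges of NP1, NP2, PEP-A and NP3 touched, so their order is not settled by these libraries, while PEP-C, TH, NF and TRPM8 each lay below the type before it in both libraries.

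Scn11a followed the same order in the non-peptidergic types, with 4.90 and 4.41 per 10000 in NP1, 4.88 and 4.17 in NP2, and 4.24 and 3.27 in NP3. PEP-C held 2.01 and 1.74, TH 1.65 and 1.24, and PEP-A 1.22 and 1.18. NF held 0.369 and 1.24, and TRPM8 0.0867 and 0.0185. PEP-A and NF overlapped. The pair parted in PEP-A. Scn11a UMIs there were 0.303 of those of Scn10a in replicate 1 and 0.326 in replicate 2. The ratios were 1.04 and 1.07 in NP1, 1.08 and 1.15 in NP2 and 0.70 in either library of PEP-C. Exact 95% intervals of the PEP-A ratios reached 0.370 at most and those of PEP-C began at 0.663, and these intervals, like all intervals on counts here, cover counting error only.

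**Figure D1:**
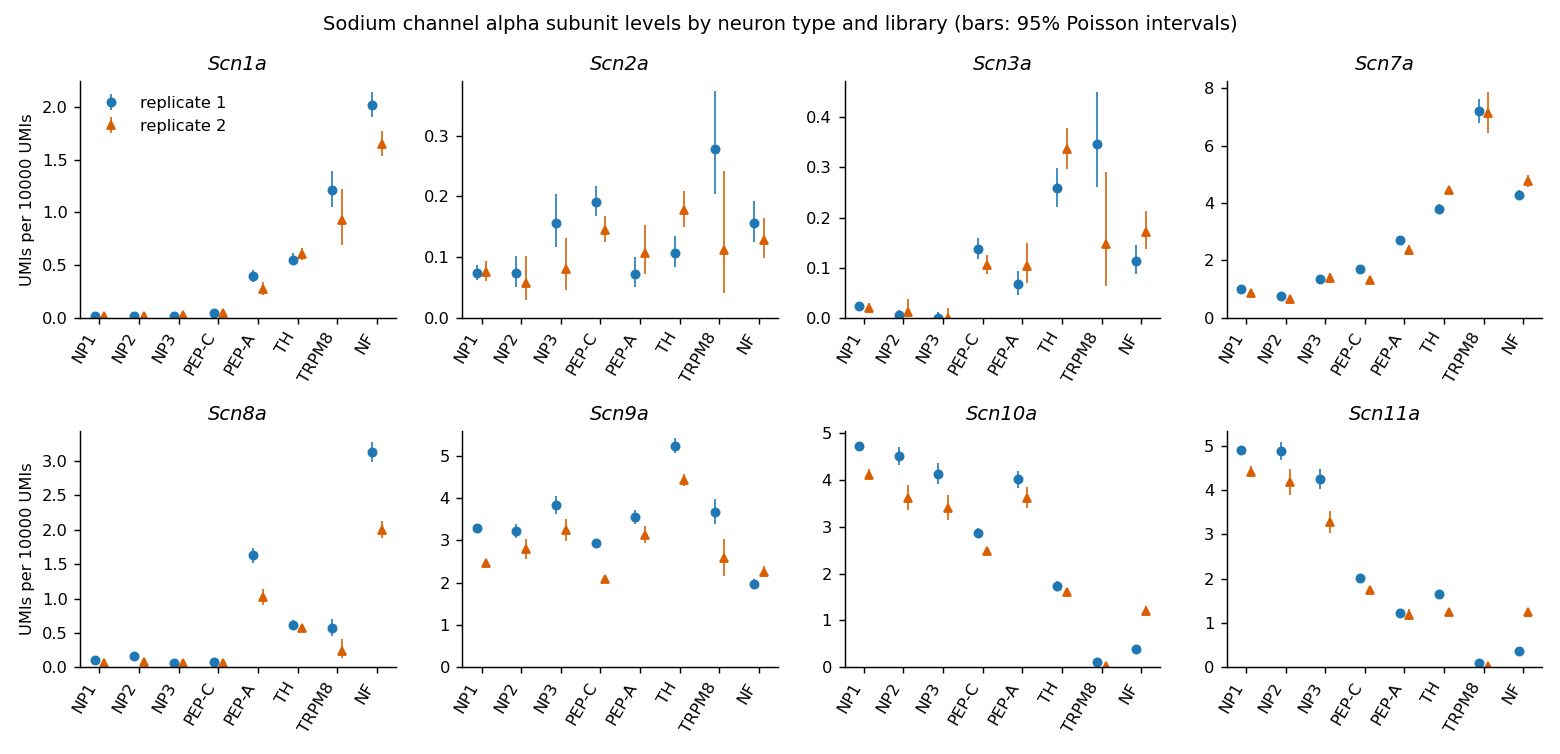
Each panel plots UMIs of 1 gene per 10000 UMIs (linear axes from 0, scaled per panel) in 8 neuron types, with a circle for replicate 1, a triangle for replicate 2 and bars for 95% Poisson intervals. Scn10a and Scn11a are high in NP1, NP2 and NP3 and lowest in TRPM8. Scn1a and Scn8a are highest in NF, Scn9a is highest in TH, and Scn7a is highest in TRPM8.

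Scn9a was the most evenly spread member. TH neurons, the low-threshold C mechanoreceptors, held the most, 5.24 and 4.43 UMIs per 10000, and the type means of the rest ran from 3.53 in NP3 to 2.11 in NF. Neighbours in that order overlapped between libraries, apart from TH, which lay above all others. To make depths equal, cells were thinned to 20000 UMIs, and here as below, cells under the thinning depth were left out. At 20000 UMIs this left out 49 PEP-C, 37 NF, 21 PEP-A, 18 TH and 18 NP1 cells, and 2 or fewer of each other type. Among the cells kept, Scn9a was found in 92.4% of NF cells and in 96.8% or more of each other type.

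Scn1a and Scn8a were highest in NF, and TRPM8, TH and PEP-A also held more of both than the remaining types. Scn1a stood at 2.02 and 1.65 per 10000 in NF, 1.21 and 0.925 in TRPM8, 0.551 and 0.603 in TH and 0.392 and 0.268 in PEP-A. It was at or under 0.0462 in either library of PEP-C, NP1, NP2 and NP3, below the 0.107 and 0.124 of endothelial cells. The 4 leading types lay apart from each other. Scn8a stood at 3.13 and 2.00 in NF, 1.63 and 1.02 in PEP-A, 0.621 and 0.575 in TH and 0.570 and 0.240 in TRPM8. Elsewhere it was at or under 0.170, against 0.166 and 0.106 in endothelial cells. Endothelial cells were far shallower than neurons (medians of 10730 and 6961 UMIs) and held neuron markers at 9.90 and 15.5 per 10000. Their levels were not tested as a floor for neurons. Scn8a outnumbered Scn1a in PEP-A by 4.15 and 3.80 to 1 and in NF by 1.55 and 1.21 to 1, was near parity with it in TH (1.13 and 0.953), and was the lesser in TRPM8 (0.469 and 0.260).

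The members Scn2a and Scn3a, known as channels of the central nervous system and of developing neurons, were scarce. Scn3a was highest in TH (0.259 and 0.336 per 10000) and TRPM8 (0.347 and 0.148), at 0.114 and 0.171 in NF, 0.136 and 0.105 in PEP-C and 0.0663 and 0.104 in PEP-A, and at 0.0223 or lower in NP1 and NP2. No Scn3a UMI was found among 5263101 UMIs of NP3 neurons. Against a floor of 3 counts over both libraries, 0.00570 per 10000, NP3 was at least 19.5-fold lower than the mean of the 6 other fitted types. Scn2a lay between 0.0571 and 0.279 in every neuron type and library.

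Scn7a ranked the neuron types almost in reverse of the tetrodotoxin-resistant pair. It stood at 7.20 and 7.14 UMIs per 10000 in TRPM8, 4.26 and 4.76 in NF, 3.80 and 4.44 in TH and 2.69 and 2.36 in PEP-A, then 1.69 and 1.31 in PEP-C, 1.34 and 1.37 in NP3, 0.983 and 0.842 in NP1, and 0.748 and 0.644 in NP2. Only NF and TH, and PEP-C and NP3, overlapped with their neighbour in this order. Neurons also carried markers of the non-myelinating Schwann type, some of which neurons are known to make themselves (Ncam1, L1cam), summed to 4.28 and 2.22 per 10000 in TRPM8, 4.89 and 4.67 in NF, 6.97 and 5.72 in TH, 10.8 and 7.54 in PEP-A and 8.35 and 5.60 in PEP-C, and to between 2.88 and 4.94 in NP1, NP2 and NP3. The Schwann type itself held 34.2 and 29.0, and the order over neuron types was not that of Scn7a; their part in neuronal Scn7a was not tested.

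As a whole, the 8 members made up nearly the same share of RNA in most neuron types while the mix within it turned over. Their sum lay between 12.3 and 13.7 per 10000 (means of 2 libraries) in 7 types and was 8.95 ± 1.41 (SD, n = 2) in PEP-C. Scn10a and Scn11a together gave 69.6% ± 2.00 of member UMIs in NP1, 68.7% ± 0.384 in NP2, 59.5% ± 1.77 in NP3, 51.0% ± 2.73 in PEP-C, 39.6% ± 1.68 in PEP-A, 22.7% ± 2.14 in TH, 12.1% ± 8.54 in NF and 0.878% ± 0.773 in TRPM8. The 5 tetrodotoxin-sensitive members gave 23.4% ± 2.03 in NP1 and 52.9% ± 9.34 in NF. Single members leading the mix were Scn11a in NP1 (35.7%) and NP2 (36.3%), Scn10a in NP3 (29.9%), PEP-C (30.0%) and PEP-A (30.1%), Scn9a in TH (35.3%), and Scn7a in NF (34.9%) and TRPM8 (58.7%). The lead was not settled in NP3, PEP-C and TH, where another member led in 1 of the 2 libraries.

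**Figure D2:**
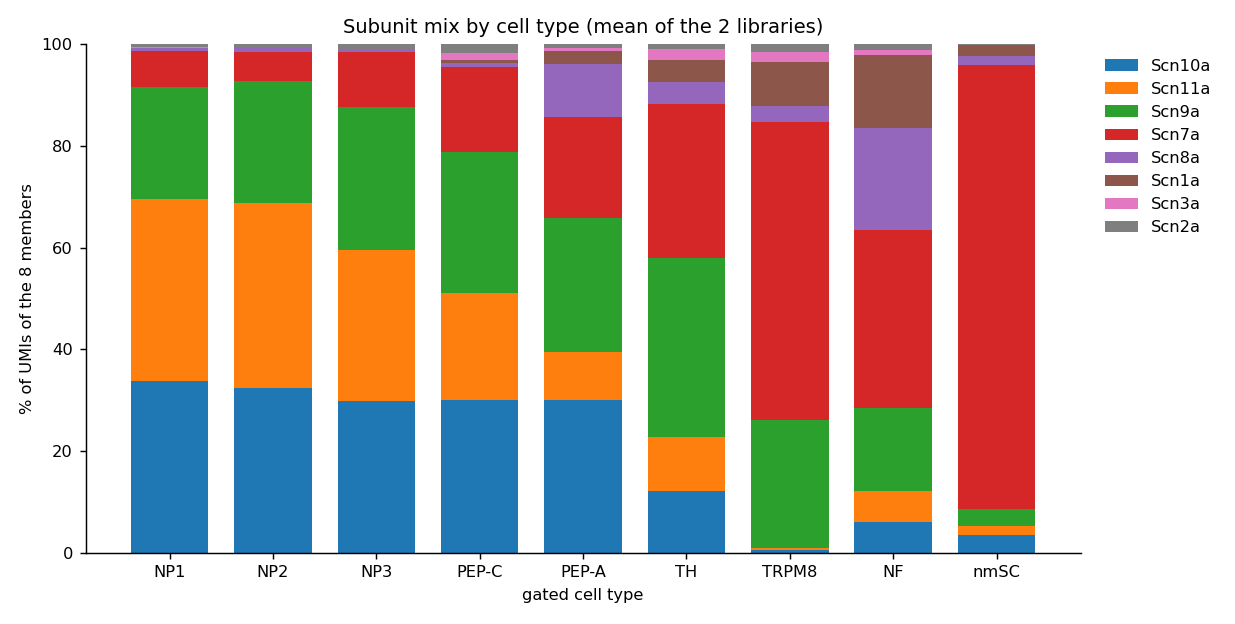
Stacked bars give each member's percent of the UMIs of all 8 members (mean of 2 libraries) in 8 neuron types and in non-myelinating Schwann cells (nmSC). The Scn10a and Scn11a parts shrink from 69.6% together in NP1 to 0.878% in TRPM8, and Scn7a fills 87.3% of the Schwann cell bar.

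Large A-fibre neurons and C fibres differed in 7 of the 8 members. NF was compared with the mean of the C-fibre types NP1, NP2, NP3, PEP-C and TH in edgeR, with quasi-likelihood tests on UMI sums per type and library and Benjamini-Hochberg adjustment over all 13178 genes tested. This contrast called 47.1% of all genes (26.6% higher and 20.5% lower in NF), so a call by itself is common here, and the sizes carry more than the count. Scn1a was 44.7-fold higher in NF (log2 change 5.48 ± 0.14 SE, adjusted p = 4.38e-13) and Scn8a 18.9-fold higher (4.24 ± 0.12, adjusted p = 1.64e-12). Both sizes depend on how low the C-fibre levels are. Outside TH, these lay at or below the level of the far shallower endothelial cells for Scn1a and near or below it for Scn8a. Scn7a was higher by 1.58 ± 0.09 on the log2 scale (adjusted p = 3.25e-09). Scn10a fell by 2.13 on the log2 scale (SE 0.27, adjusted p = 1.37e-05), Scn11a fell by 2.01 (SE 0.29, adjusted p = 5.14e-05) and Scn9a fell by 0.73 (SE 0.11, adjusted p = 6.31e-05). Scn2a did not pass (0.29 ± 0.23, adjusted p = 0.323).

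Scn3a also passed in this edgeR contrast as higher in NF (adjusted p = 4.15e-06), but its size there rests on NP3, which had no UMI. With NP3 left out, an alternative chosen after the data were seen, it was higher by 1.44 ± 0.24 (adjusted p = 2.29e-04). Over the 7 members with a value, the median change was 0.29, against 0.02 over all genes.

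The replicates differed in how low the resistant pair went in NF. Within replicate 1, Scn10a was lower than in the C-fibre types by 3.15 on the log2 scale and Scn11a by 3.14, and within replicate 2 by 1.45 and 1.28. Markers of PEP-C summed to 12.5 UMIs per 10000 in NF of replicate 1 and to 26.7 in replicate 2, those of NP1 to 0.163 and 0.795, those of NP3 to 0.0834 and 0.809, and red cell genes to 0.557 and 3.35. Their part in the difference between libraries was not tested.

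Within NF, cells were split by which of Pvalb (a proprioceptor marker), Ntrk2 (A-delta low-threshold) or Calb1 was strongest, as a description with no test. Scn7a was 6.24 and 10.2 per 10000 in the 29 and 25 cells led by Ntrk2, 2.24 and 2.93 in the 25 and 43 led by Pvalb, and 1.36 and 2.21 in the 11 and 30 led by Calb1. Scn9a was lowest in Pvalb-led cells, at 1.04 and 1.37, against 2.34 and 2.89 in Ntrk2-led and 3.39 and 2.98 in Calb1-led cells. Scn8a was lowest in Calb1-led cells, at 2.46 and 1.04, against 3.32 and 2.14 in Pvalb-led and 3.01 and 2.60 in Ntrk2-led cells. The 1 and 4 NF cells with none of these markers are not described. Scn1a stayed between 1.00 and 2.07 in all 3 subsets. In replicate 2, the Pvalb-led cells held the most Scn10a (1.73 against 0.431 in Ntrk2-led cells), and in replicate 1 they held 0.537 against 0.223.

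**Figure D3:**
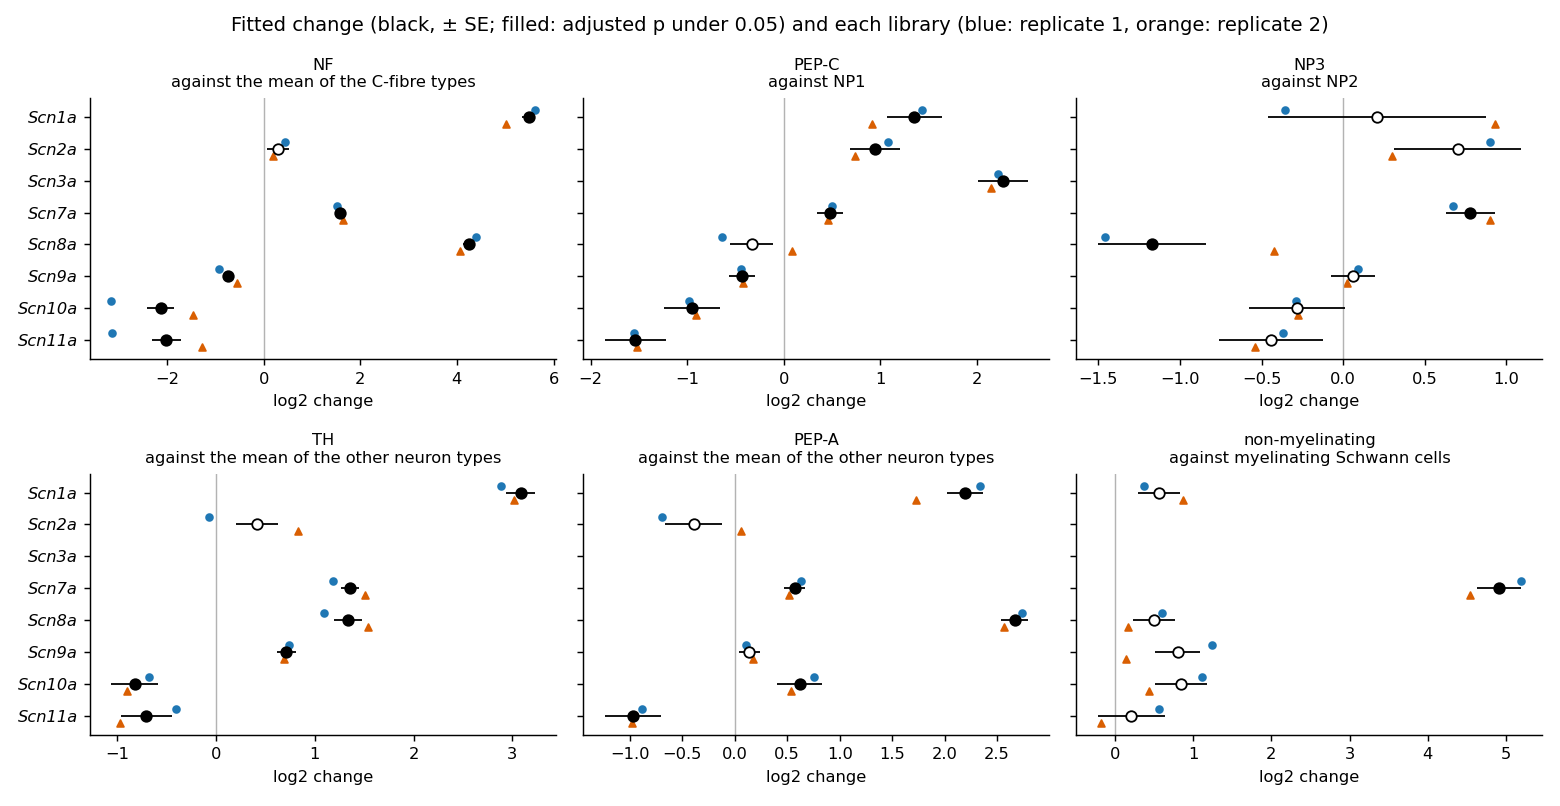
Points give log2 changes in 6 comparisons: black points with SE bars are the edgeR fit (filled where the adjusted p was under 0.05), and blue circles and orange triangles are replicates 1 and 2. Scn3a is left blank where a type held 3 UMIs or fewer, as is Scn2a in the Schwann cell panel; Scn1a and Scn8a lie farthest right in NF, and Scn7a does in the Schwann cell panel.

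TH neurons differed from the mean of the 6 other fitted neuron types in 7 of 8 members (5 higher and 2 lower; of all genes 40.6% passed, 22.1% higher and 18.6% lower). Such a contrast is against the mean of the log2 levels, in which types with very low levels weigh as much as NF, so a gene can be higher in it while NF alone holds more. Scn1a was higher by 3.08 ± 0.15 (adjusted p = 3.52e-10), Scn7a by 1.35 ± 0.09 (adjusted p = 1.76e-08), Scn8a by 1.33 ± 0.14 (adjusted p = 1.59e-06) and Scn9a by 0.71 ± 0.09 (adjusted p = 2.11e-05). Scn3a passed as well (adjusted p = 8.15e-09), by 2.67 ± 0.18 with NP3 left out (adjusted p = 6.44e-08). Scn10a fell by 0.82 (SE 0.24, adjusted p = 0.0123), a call lost with TRPM8 in the fit, and Scn11a by 0.71 (SE 0.26, adjusted p = 0.0399), but the Scn11a call was lost under 7 of 13 alternatives, with an adjusted p of 0.0793 without the library term and 0.118 in DESeq2. Each tetrodotoxin-sensitive member except Scn2a (0.42 ± 0.21, adjusted p = 0.136) was higher in TH neurons by the edgeR test.

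PEP-A neurons shared the Scn8a and Scn1a pattern of NF but kept Scn10a. Against the mean of the other types, 5 members were higher and 1 was lower, where 28.0% of all genes passed, 18.0% higher and 9.99% lower. Scn8a was higher by 2.67 ± 0.13 (adjusted p = 8.95e-10), Scn1a by 2.20 ± 0.17 (adjusted p = 1.65e-07) and Scn7a by 0.57 ± 0.10 (adjusted p = 5.02e-04), and Scn11a fell by 0.97 (SE 0.27, adjusted p = 0.0140). Calls of Scn7a and Scn11a were lost under the stricter gate and with TRPM8 in the fit, beside the fold requirement of 1.5. Scn10a passed narrowly (0.62 ± 0.21, adjusted p = 0.0424) and lost its call under 8 of 13 alternatives, with an adjusted p of 0.0875 without the library term. The Scn3a call (adjusted p = 0.00245) was lost with NP3 left out (0.45 ± 0.27, adjusted p = 0.245).

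NP1 and NP2 showed the converse pattern, with 2 members higher and 3 lower in each. Of all genes, 40.6% passed in NP1, 21.8% higher and 18.7% lower. In NP2, 28.9% of the 13178 genes passed, 2102 of them higher and 1704 (12.9% of all genes) lower. In NP1, Scn11a was higher by 1.50 ± 0.21 (adjusted p = 5.16e-05) and Scn10a by 1.05 ± 0.20 (adjusted p = 7.23e-04), while Scn1a fell by 2.91, Scn8a by 1.84 and Scn7a by 0.95, with adjusted p-values of 7.05e-06 or lower. With NP3 left out, Scn3a also fell by 1.64 in NP1 (SE 0.30, adjusted p = 6.79e-04) and fell by 3.85 in NP2 (SE 0.47, adjusted p = 3.59e-05), where NP2 held 2 UMIs of it in each library. In NP2, Scn11a was higher by 1.39 ± 0.22 (adjusted p = 2.69e-04) and Scn10a by 0.85 ± 0.21 (adjusted p = 0.00725), and Scn1a fell by 3.12, Scn7a by 1.47 and Scn8a by 1.12. Scn9a did not pass in either (0.07 ± 0.10 and 0.09 ± 0.10), nor in NP3 (0.15 ± 0.10) or PEP-A (0.14 ± 0.10).

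In NP3, 1 member was higher and 4 were lower, where 36.3% of all genes passed, 18.0% higher and 18.3% lower. Scn11a was higher by 0.87 ± 0.23 (edgeR adjusted p = 0.00829; 0.0506 in DESeq2), and Scn10a did not pass (0.52 ± 0.22, adjusted p = 0.0751). Scn1a fell by 2.88, Scn8a by 2.49 and Scn7a by 0.56, and Scn3a was the member with no UMI. In PEP-C, 2 members were higher and 4 lower, where 32.9% of all genes passed, 20.3% higher and 12.6% lower. Scn3a was higher by 1.07 ± 0.20 with NP3 left out, and Scn2a by 0.65 ± 0.19 (adjusted p = 0.0182; 0.0633 in DESeq2). Scn8a fell by 2.23, Scn1a by 1.33, Scn9a by 0.43 (0.0572 without the library term) and Scn7a by 0.39.

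Set against all 6 other types, PEP-A and TH neurons included, NF had 4 members higher and 3 lower, where 43.7% of all genes passed, 25.2% higher and 18.5% lower. Scn1a was higher by 4.96 ± 0.13, Scn8a by 3.68 ± 0.12 and Scn7a by 1.44 ± 0.09, and Scn3a by 1.29 ± 0.22 with NP3 left out. Scn10a fell by 2.18, Scn11a by 1.79 and Scn9a by 0.73.

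NP3 against NP2 asked whether the itch types differ in their channels. Of 8 members, 2 passed, 1 in each direction, which is near the 26.4% of all genes that passed, 12.2% higher and 14.2% lower. Scn7a was higher in NP3 by 0.78 ± 0.15 (adjusted p = 0.00135), and Scn8a fell by 1.17 (SE 0.33, adjusted p = 0.0175). The Scn8a call rested on 22 and 13 UMIs in NP3 against 81 and 15 in NP2, and was lost without the library term (adjusted p = 0.110) and under the looser gate. Scn10a (fitted change -0.29 ± 0.29, adjusted p = 0.519), Scn11a (-0.44 ± 0.32, adjusted p = 0.341) and Scn9a (0.06 ± 0.13, adjusted p = 0.798) did not pass, which does not show that they were equal.

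PEP-C against NP1 separated the main peptidergic and non-peptidergic C nociceptors in 7 of 8 members, 4 higher and 3 lower, where 45.6% of all genes passed, 24.7% higher and 20.9% lower. Scn11a fell by 1.54 (SE 0.32, adjusted p = 0.00111) in PEP-C, which is 2.90-fold, and Scn10a fell by 0.95 (SE 0.29, adjusted p = 0.0145). Scn9a fell by 0.43 (SE 0.13, adjusted p = 0.0143; 0.0967 without the library term). Scn3a was higher in edgeR by 2.28 ± 0.26 (adjusted p = 7.01e-06) and Scn1a by 1.35 ± 0.28 (adjusted p = 0.00121). Both Scn1a levels were below that of the far shallower endothelial cells. Scn2a was higher in edgeR by 0.95 ± 0.26 (adjusted p = 0.00751) and Scn7a by 0.48 ± 0.13 (adjusted p = 0.00830). The Scn10a call was lost in DESeq2 (adjusted p = 0.0640) and, like that of Scn9a, with no normalization factors. Scn8a was near the lowest of all types in both and did not pass (-0.33 ± 0.22, adjusted p = 0.237).

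PEP-C cells with a UMI of Sstr2, a somatostatin receptor, held more Scn11a than those without: 2.25 against 1.54 per 10000 in replicate 1 and 1.99 against 1.17 in replicate 2. Their Scn8a was lower, 0.0596 against 0.119 and 0.0401 against 0.130. Scn10a differed less, 2.94 against 2.74 and 2.53 against 2.35. These subsets share libraries and differ in depth (medians of 85382 and 103810 UMIs in replicate 1, 58762 and 31381 in replicate 2), and no test was made.

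TRPM8 neurons held under 20 cells in replicate 2 and were left out of the main fits. In an alternative chosen after the data were seen, with types of at least 10 cells, 5 of 8 members passed against the mean of the 7 other types in edgeR, where 26.9% of all genes did. Scn1a was higher by 3.43 ± 0.17 (adjusted p = 1.63e-10), Scn7a by 1.85 ± 0.10 (adjusted p = 3.70e-10) and Scn3a passed as higher, while Scn10a fell by 5.18 (SE 0.47, adjusted p = 2.55e-07) and Scn11a by 5.13 (SE 0.52, adjusted p = 9.42e-07). Scn10a rested on 17 UMIs in replicate 1 and 1 in replicate 2, and Scn11a on 14 and 1. Endothelial cells, which are far shallower, held 0.129 and 0.250 per 10000 of Scn10a and 0.0819 and 0.241 of Scn11a; the part of free RNA in the TRPM8 UMIs was not tested. Scn9a did not pass (-0.12 ± 0.12, adjusted p = 0.494) and neither did Scn8a (0.50 ± 0.21, adjusted p = 0.0943).

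Within single cells the resistant pair was held together. With cells thinned to 20000 UMIs, both Scn10a and Scn11a had a UMI in 277 of 277 NP1 cells (exact 95% Clopper-Pearson interval 98.7% to 100%), 54 of 54 NP2 cells and 62 of 63 NP3 cells. Both were found in 88.6% of TH, 82.6% of PEP-C and 70.4% of PEP-A cells, and in 1 of 34 TRPM8 cells. In PEP-A, the other 29.6% held Scn10a alone and none held Scn11a alone. In NF the share with both was 15.1% in replicate 1 and 42.3% in replicate 2. At 2000 UMIs per cell, a depth that non-neuronal cells also reached, both were found in 36.9% of NP1 cells (median depth before thinning 98916 UMIs) and in 0.497% of 1007 endothelial cells (median 8230).

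Scn1a and Scn8a together had UMIs in 68.7% of NF cells, 47.1% of TRPM8, 44.9% of TH and 32.4% of PEP-A cells, and in 1.59% or fewer of NP1, NP2, NP3 and PEP-C cells. The number of the 8 members found per cell had a median of 6 in TH, 5 in PEP-A and NF and 4 in the other types. The mean was highest in TH at this depth (5.91 members per cell, against 4.15 in NP2), but at 2000 UMIs PEP-A (1.97) and NP3 (1.91) lay above TH (1.88).

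**Figure D4:**
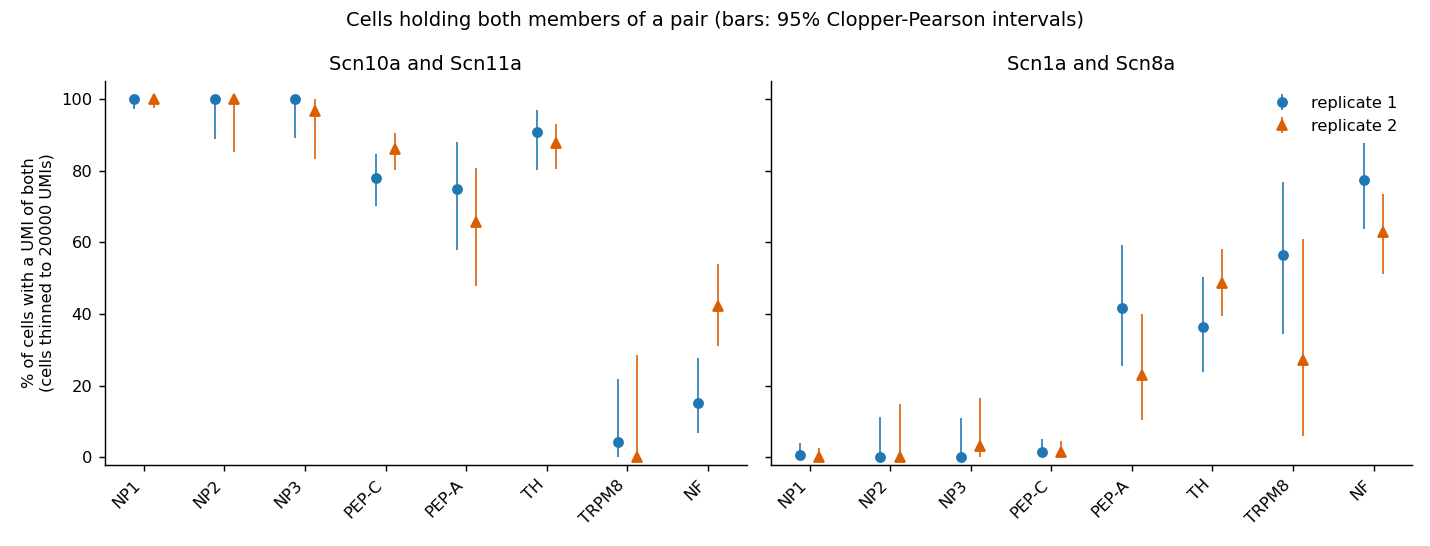
Percent of cells with a UMI of both Scn10a and Scn11a (left) or both Scn1a and Scn8a (right), among cells of at least 20000 UMIs, thinned to 20000. Neuron types are plotted with a circle for replicate 1, a triangle for replicate 2 and 95% Clopper-Pearson bars. The left panel is at 100% in NP1 and NP2 and near 0 in TRPM8, and the right panel is highest in NF.

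In glia the family came down to Scn7a in non-myelinating Schwann cells, which ensheath C fibres in Remak bundles. These cells held 26.6 and 14.8 UMIs of Scn7a per 10000, 87.3% ± 3.36 (SD, n = 2) of their member UMIs, and the 2 libraries differed in level by more than their counting intervals. Myelinating Schwann cells held 0.618 and 0.621 and satellite glia 0.240 and 0.274. At 2000 UMIs per cell, Scn7a was found in 83.4% of 447 non-myelinating Schwann cells, 11.1% of myelinating Schwann cells and 5.49% of satellite glia, against 5.96% of endothelial cells, a type not known for it (median depths before thinning 3378, 3429, 7493.5 and 8230 UMIs). The unthinned levels above give the same order.

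Against myelinating Schwann cells, Scn7a was 30.1-fold higher in non-myelinating ones (4.91 ± 0.29, adjusted p = 7.06e-10) and was the only 1 of 8 members to pass, where 12.2% of all 13180 genes did, 6.93% higher and 5.27% lower. Scn9a (0.80 ± 0.29, adjusted p = 0.0835) and Scn10a (0.85 ± 0.33, adjusted p = 0.113) did not pass. Against satellite glia, 5 of 8 were higher and none lower, where 15.1% of all genes passed, 7.31% higher and 7.81% lower: Scn7a was higher by 5.97 ± 0.30 (adjusted p = 1.39e-10), Scn9a by 1.75 ± 0.28, Scn10a by 1.75 ± 0.32, Scn1a by 1.58 ± 0.26 and Scn8a by 0.93 ± 0.25. The 9 markers of neurons summed to 27.7 and 29.8 UMIs per 10000 in non-myelinating Schwann cells, 24.6 and 36.0 in myelinating ones and 11.5 and 14.9 in satellite glia, so neuronal RNA moved with these last 4 calls; its part was not tested. Scn10a and Scn8a lost their calls under the stricter gate, under a mitochondrial limit of 10% and without the library term (adjusted p = 0.0660 and 0.0980).

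Satellite glia and endothelial cells, the latter not known to make the neuronal members, held most of them at alike levels. In endothelial cells Scn10a stood at 0.129 and 0.250 per 10000, Scn11a at 0.0819 and 0.241, Scn9a at 0.144 and 0.270 and Scn1a at 0.107 and 0.124, and satellite glia held similar levels (Scn10a 0.137 and 0.264, Scn9a 0.153 and 0.247, Scn1a 0.133 and 0.110). Scn8a was higher in satellite glia (0.186 and 0.181) than in endothelial cells (0.166 and 0.106). In the mix, Scn10a was 17.2% in satellite glia and 16.7% in endothelial cells, Scn7a 23.0% and 24.6%, Scn8a 16.7% and 13.2%, and Scn1a 11.2% and 10.6%, where neurons had 2.69% of Scn1a and 4.06% of Scn8a. The part of free RNA in these values was not tested. Myelinating Schwann cells held more, with means of 0.426 per 10000 for Scn10a and 0.449 for Scn9a, and their neuron markers were higher as well (24.6 and 36.0, against 9.90 and 15.5 in endothelial cells). The sum of all members was 1.14 ± 0.280 per 10000 in satellite glia, 1.10 ± 0.264 in endothelial cells and 2.43 ± 0.460 in myelinating Schwann cells.

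Fibroblasts held 1.40 and 1.49 Scn7a UMIs per 10000, in 25.4% of cells at 2000 UMIs, with markers of the non-myelinating Schwann type at 8.01 and 7.30 per 10000 against 0.717 and 0.757 in endothelial cells; their part was not tested. Mural cells held 0.368 and 0.179 of Scn3a, against 0.00496 and 0.00555 in endothelial cells and 0.0904 and 0.120 in all neurons together, while their neuron markers summed to 22.1 and 28.4 per 10000.

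**Figure D5:**
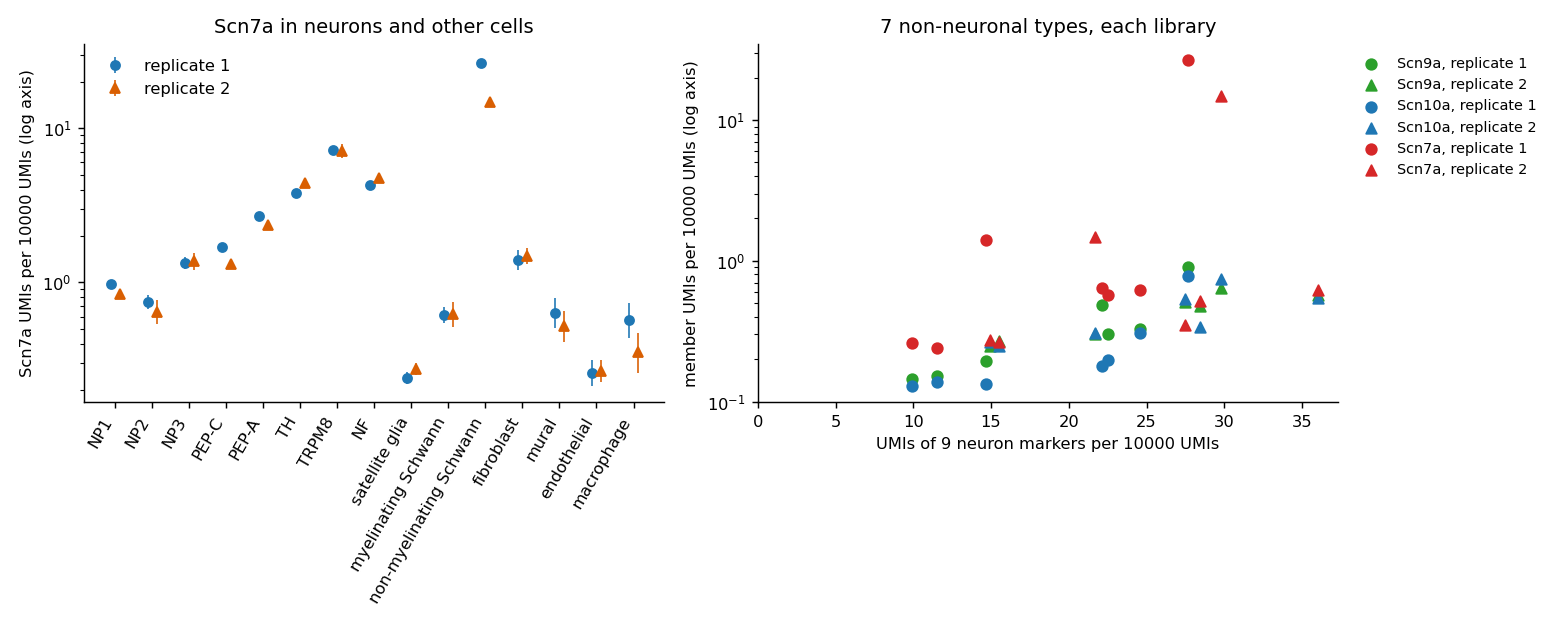
Left, Scn7a UMIs per 10000 (log axis, 95% Poisson bars) in 8 neuron and 7 other types, with replicate 1 as circles and replicate 2 as triangles. Right, UMIs of Scn9a (green), Scn10a (blue) and Scn7a (red) per 10000 (log axis) against UMIs of 9 neuron markers in 7 non-neuronal types of each library; only the 2 non-myelinating Schwann cell points of Scn7a, at 26.6 and 14.8, and the fibroblast points, at 1.40 and 1.49, rise above 1.

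Neurons as a whole were above the mean log2 level of the 3 glial types in 7 of 8 members in edgeR. This contrast called 64.7% of all genes, 34.2% higher and 30.5% lower (52.9% of calls higher, but 43.3% in DESeq2 and 44.2% with RLE factors). Scn11a was higher by 3.53 ± 0.24, Scn10a by 3.02 ± 0.20 and Scn9a by 2.92 ± 0.18, with adjusted p-values of 9.45e-11, 8.27e-11 and 2.29e-11. Scn8a was higher by 0.75 ± 0.16 (edgeR adjusted p = 3.80e-04). Scn2a and Scn3a passed with no size given, since non-myelinating Schwann cells held 3 UMIs or fewer of each. Satellite glia held 15 and 17 UMIs of Scn2a and 3 and 10 of Scn3a. Scn1a did not pass in edgeR (0.36 ± 0.17, adjusted p = 0.0625). The Scn7a call (0.51 ± 0.19, adjusted p = 0.0241) was lost under 7 of 11 alternatives, with an adjusted p of 0.0975 without the library term and 0.233 in DESeq2. Scn7a averaged 2.10 per 10000 in neurons, against 20.7 in non-myelinating Schwann cells, 0.619 in myelinating ones and 0.257 in satellite glia. The non-myelinating type alone thus held more Scn7a than neurons.

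Genes that work with these channels were followed as a list of 27, among them beta subunits, FGF partners, ankyrins and adhesion molecules of the node, the sodium leak complex and the sodium pump. Of 26 tested, 16 were higher and 5 lower in NF against the C-fibre types, where 26.6% of all genes were higher and 20.5% lower, and their median change was 0.92. Cntn1, a nodal adhesion molecule, was higher by 4.46 ± 0.08 (adjusted p = 3.79e-14). Tmem233, known as a partner of NaV1.7, fell by 1.86 (SE 0.30, adjusted p = 1.25e-04) and Nedd4l, a ubiquitin ligase of sodium channels, by 1.82 (SE 0.17, adjusted p = 4.96e-07). In TH neurons 13 of the list were higher and 5 lower, against 22.1% and 18.6% of all genes. Tmem233 fell by 5.17 there (SE 0.38, adjusted p = 3.91e-08), and Fgf13, an FGF-like partner of channel inactivation, by 1.56 (SE 0.12, adjusted p = 8.21e-08).

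In the itch types, Tmem233 was higher against the other neuron types by 2.37 ± 0.21 in NP2 (adjusted p = 1.24e-06) and by 3.02 ± 0.21 in NP3 (adjusted p = 2.75e-08). Between them, 6 of 26 partners were higher in NP3 and 4 lower, not far from the 26.4% of all genes that passed. The sodium pump subunit Atp1b1 was higher in NP3 by 2.09 ± 0.17 (adjusted p = 5.13e-07). Ank2 and S100a10, an annexin partner that carries NaV1.8 to the membrane, fell by 0.47 (SE 0.14) and 0.76 (SE 0.18), with adjusted p-values of 0.0190 and 0.00589.

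In PEP-C against NP1, 12 of 26 partners were higher and 8 lower, against 24.7% and 20.9% of all genes. Nfasc, an adhesion molecule of the axon initial segment and node, was higher by 2.68 ± 0.21 (adjusted p = 8.72e-08), and Fgf11 by 5.42 ± 0.38 (adjusted p = 2.87e-08). Tmem233 fell by 3.21 (SE 0.35, adjusted p = 2.92e-06). Between Schwann cell types, Nfasc fell by 2.41 (SE 0.27) and Nrcam by 1.60 (SE 0.31) in the non-myelinating type, both adhesion molecules of the node, and Ank3 was higher by 1.22 ± 0.30; 3 of 23 tested partners were higher and 2 lower, against 6.93% and 5.27% of all genes.

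For each member at 20 counts per 1000000 or more in a neuron type, the genes with the most alike pattern over 14 sums of type and library were found by Pearson's r of log2 values, leaving out gate markers and members. The sums of a library share its depth and free RNA, and r is a description across 7 types with no test. The closest genes were Ndrg3, Syt3 and Shank1 for Scn1a (r of 0.989, 0.987 and 0.978), Chd5 for Scn3a (0.975), Neto1 for Scn7a (0.973), Rimkla for Scn8a (0.965), Prkce for Scn9a (0.892), Rras for Scn10a (0.922) and Mal2 for Scn11a (0.971). Among members, Scn1a and Scn7a had an r of 0.958, Scn1a and Scn8a 0.932, and Scn10a and Scn11a 0.844.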

How the data were processed

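The 2 libraries of dissociated ganglia, sequenced with the 10x Genomics 3' v3.1 kit, were analysed. Values in the deposited matrices are unnormalized UMI counts (build mm10), made with Cell Ranger 5.0.1 after CASAVA 1.8, per the submitters' processing notes. The deposited barcode and feature files hold names of another kind (unit other). The totals were 113251556 UMIs over 8818 barcodes for replicate 1 and 102347251 over 11767 for replicate 2; 24 barcode sequences occurred in both.

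A barcode was kept if it held 500 genes or more and its mitochondrial share was below 20%. Scrublet in scanpy 1.11.5 marked 1 and 0 cells by its own thresholds, so instead the top-scoring 555 and 1020 cells, in proportion to library size, were taken out. A cell took a type where the mean of its 3 highest scaled markers reached 0.4 and exceeded the next type by 0.1. Neurons needed 10000 UMIs, and 1582 and 2772 shallower neuron-like barcodes were left out. Of gated neurons, 86 and 129 lay within 0.05 of a threshold. Members and lists were chosen with earlier results of these data known, and gate thresholds after marker levels were seen.

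UMIs were summed per type and library (at least 20 cells in each) and tested with edgeR 4.0.16 (R 4.3.3): TMM factors, its filter on low counts, terms for type and library, quasi-likelihood test, Benjamini-Hochberg adjustment, call under 0.05. Library is a term because all types of a replicate come from 1 library. TRPM8 neurons fell short of 20 cells and so are not in the C-fibre mean for which they were planned. The neuron fit held 7 types and 6 residual degrees of freedom (13178 genes), the broad fit 11 types and 10 (13180 genes). A change is given only where every type on either side held over 3 UMIs of the gene. The test was also run on simulated sums with few changed genes and no library effect, a simpler setting than these data, and its outcome is not reported here. All 8 members are named; of partners, those named are among the 2 with the largest passing change in each direction at 10 counts per 1000000 or more, and some are not reported here. Positions are from GENCODE mouse release 21. DESeq2 1.42.0, other factors, filters, gates and depths were tried as alternatives. Figures were drawn with matplotlib 3.10.9.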

Additional observations from a re-analysis of the deposited data

How the results depend on the processing

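Of 70 member calls, 45 held under every alternative that gave a test, 10 were lost only where a fold of at least 1.5 was required, and 15 were lost otherwise. Every one of the 62 calls with a value had the same sign in both libraries, but the calls were made from those same libraries. The replicate block (library as a term) mattered for 8 calls, which were lost without it. NP3 against NP2 fell from 2 members called to 1 with no replicate block, 1 with the looser gate and 0 with a fold of 1.5 required. PEP-C against NP1 fell from 7 to 3 with that fold. Non-myelinating against myelinating Schwann cells rose from 1 to 3 with no filter on low counts and to 4 with the looser gate. Against satellite glia, 5 calls became 3 with no replicate block, with the stricter gate and with mitochondrial shares under 10%. The cause was not tested.

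Among values whose direction turned, none was a call of its own comparison except Scn11a in TH, which was 0.0432 with TRPM8 in the fit. Scn9a turned to -0.12 in NP1 and -0.0395 in NP2 without normalization factors. Scn10a in PEP-C turned to 0.0165 without factors, 0.13 with the stricter gate, 0.0345 with NP3 left out and 0.67 with TRPM8 in the fit (edgeR adjusted p = 0.0323), and Scn11a there to 0.43; adding a type near 0 changes the mean that PEP-C is set against. Between Schwann types, Scn10a turned to -0.17 with the stricter gate and Scn11a to -0.25 with the mitochondrial limit. Without factors the median of all genes moved to 0.28 in PEP-C against NP1 and to -0.21 in NP1, and the share of calls that were higher moved from 54.2% to 72.3% and from 53.9% to 31.0%. It moved from 56.5% to 67.6% in NF against the C-fibre types, 57.6% to 68.8% in NF against the others, 55.2% to 39.7% in NP2, 46.3% to 63.2% in NP3 against NP2, 56.8% to 67.1% between Schwann types and 48.3% to 77.0% in non-myelinating Schwann cells against satellite glia (36.3% with the stricter gate). In neurons against glia the median of all genes moved from 0.09 to -0.18 in DESeq2 and -0.11 with RLE factors. A required fold of 1.5 cut the calls over all genes in NF against the C-fibre types (6203 to 2662), PEP-C against NP1 (6007 to 3033), NP3 against NP2 (3485 to 1484), NF (5760 to 2315), NP1 (5344 to 2007), NP2 (3806 to 1235), NP3 (4787 to 2091), PEP-A (3693 to 1438), PEP-C (4333 to 1694) and TH (5352 to 2444) against the others, non-myelinating Schwann cells against myelinating ones (1609 to 1028) and against satellite glia (1992 to 902). The calls between non-myelinating Schwann cells and satellite glia fell to 1110 without the block. Leaving out a library leaves no residual degrees of freedom, so it gave values and no calls. Neuron types with over 50% of member UMIs from Scn10a and Scn11a numbered 4, and 3 to 4 without a replicate (PEP-C fell under it in replicate 1 alone), and 3 as a mean over cells. The stricter gate held too few NP2 cells for NP3 against NP2.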
